A study of Rattus norvegicus with 60 samples.

Results

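Astrocytes were followed through 10 genes that mark them in the brain, namely Glul, Aldh1l1, Aldoc, Gfap, Aqp4, Slc1a2, Slc1a3, Gja1, Gjb6 and S100b. They were picked by name, and every probe set that the array annotation gives to exactly 1 of these symbols was kept, which left 19 of the 31042 tested probe sets and 10 of the 14217 genes that have a probe set of their own. The rule itself uses no measured value, although it was set with earlier results of these data known, and no member was dropped for a low level. Where a gene had several probe sets, the one with the highest mean over all 60 arrays is called its lead. Gjb6, Gfap, Aldh1l1, Aldoc and S100b have 1 probe set each. The rats were of the strain given as SD, and no genotype, age or sex was stated in the labels. In the chow arm, lithium chloride (LiCl, a mood stabilizer) was mixed into the food at 0.2%, and the control rats ate vehicle chow. In the injection arm, lamotrigine (an anticonvulsant also used in bipolar disorder) was given under the skin at 30 mg/kg once a day, and the control rats received a vehicle injection. All treatments ran for 21 days. Hippocampus, cortex and striatum were taken from each of the 4 treatments, with 5 arrays in each of the 12 groups. One label field calls the tissue mouse and another speaks of constant delivery, whereas the organism, the strain and the design text give rat and a daily injection, which is how the samples are described here.

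Astrocytes clear glutamate from synapses through the transporters encoded by Slc1a2 (GLT-1) and Slc1a3 (GLAST), and turn it into glutamine with glutamine synthetase (Glul). They form a network through the connexins encoded by Gja1 (connexin 43) and Gjb6 (connexin 30), and move water through aquaporin-4 (Aqp4), which sits in the endfeet that wrap blood vessels. Aldoc encodes a glycolytic aldolase, Aldh1l1 a folate enzyme, Gfap the intermediate filament of the astrocyte skeleton, and S100b a small calcium-binding protein.

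Levels are log2 intensities, which compare arrays for 1 probe set and do not rank genes by abundance. Differences are on the same log2 scale, with the SE of the fit, and adjusted p-values come from limma over all 31042 probe sets, with 0.05 as the threshold. The regions carried their own neuronal markers, since the mean of 9 striatal neuron markers lay between 11.88 and 12.07 in the 4 striatal groups and between 7.05 and 7.64 elsewhere. The mean of the 10 astrocyte leads lay between 10.99 and 11.37 in the 12 groups, so astrocyte RNA was present throughout. On 10 arrays the choroid plexus markers exceeded the median of their region by over 1, namely LiCl 2, injection vehicle 1 and 3 and chow vehicle 5 in the hippocampus, injection vehicle 5 in the cortex, and LiCl 1 and 2, injection vehicle 2 and lamotrigine 3 and 5 in the striatum. The sample descriptions hold 24 animal numbers, 7 each for LiCl and chow vehicle and 10 for the injection arm, so several regions came from 1 animal. Nothing else states that the arrays of a group are separate animals, and p-values then measure the spread between these arrays.

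The stretches just upstream of 3 members are shown, and whether they bear on the measured levels was not tested. Glul is shown as 1 of the 2 genes that passed with LiCl averaged over regions, a call close to the threshold. Gfap is shown as the gene with the widest difference between regions, and Aldoc as the gene that followed the other members most closely. The sequences are the 250 bases before the outermost annotated start (RefSeq, build GRCr8, written 5′ to 3′ on the gene's own strand), and capitals mark any of 5 short motifs on either strand. The TATA box was searched as TATAAA and the box bound by nuclear factor Y as CCAAT. The GC box bound by Sp1 was searched as GGGCGG, and the spacing bound by STAT factors as TTCNNNGAA. The half-site of nuclear factor I was searched as TTGGC, which can share bases with the motif of nuclear factor Y.
Glul, chr13:68519250-68519499, plus strand: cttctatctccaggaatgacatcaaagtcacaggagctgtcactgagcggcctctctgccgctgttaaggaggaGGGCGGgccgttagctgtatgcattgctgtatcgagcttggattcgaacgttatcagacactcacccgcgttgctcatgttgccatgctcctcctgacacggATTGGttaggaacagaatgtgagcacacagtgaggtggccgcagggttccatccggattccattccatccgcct
Gfap, chr10:88361662-88361911, minus strand: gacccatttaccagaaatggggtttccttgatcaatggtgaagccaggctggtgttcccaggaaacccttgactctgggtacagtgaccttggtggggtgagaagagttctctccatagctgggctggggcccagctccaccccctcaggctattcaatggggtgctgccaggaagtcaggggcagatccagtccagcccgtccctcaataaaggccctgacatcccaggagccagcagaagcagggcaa
Aldoc, chr10:63715294-63715543, plus strand: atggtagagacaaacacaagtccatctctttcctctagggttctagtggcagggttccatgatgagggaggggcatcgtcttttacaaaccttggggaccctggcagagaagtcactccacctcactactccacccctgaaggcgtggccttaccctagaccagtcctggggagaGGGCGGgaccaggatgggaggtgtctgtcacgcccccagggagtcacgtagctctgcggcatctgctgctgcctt
The Glul stretch holds 1 motif of nuclear factor Y and 1 GC box with 54.4% G and C, the Aldoc stretch 1 GC box with 58%, and the Gfap stretch none of the 5 motifs with 57.6%. Glul, Aqp4, Slc1a2, Slc1a3 and Gjb6 have further annotated starts, which are not shown. The stretch before the second Glul start (chr13:68575816-68576065) holds 3 CCAAT, 1 GGGCGG and 3 TTGGC with 67.2% G and C. All 10 genes matched a RefSeq start by symbol. At the outermost start, GGGCGG was found before 5 of the 10 genes and in 30.5% of 33469 stretches of equal length, CCAAT before 4 and in 34%, and TTGGC before 2 and in 40.3%. These 33469 stretches include every annotated start of a gene, and the members have 16 when counted in that way. Of these 16 starts, 7 had GGGCGG, 5 CCAAT and 7 TTGGC. Neither TATAAA nor the STAT spacing was found before any of the 10, against 12.9% and 7.67% of all stretches. Such letters are a description only, and for 5 members (Gjb6, Aldh1l1, Aqp4, Gja1 and S100b) the stretch lies within the gene's own annotated extent.

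Without drug, astrocyte probe sets did not pass between regions clearly more often than all probe sets did. Those that passed in the striatum were mostly lower there. Both vehicle groups of a region were averaged for this (10 arrays per region). Against the cortex, 10 of 19 probe sets passed in the striatum, 9 lower and 1 higher, where 55.9% of all probe sets passed (24.7% lower, 31.2% higher). Against the hippocampus 12 of 19 passed in the striatum, all lower, beside 50.9% of all probe sets, of which 23.5% were lower. Between hippocampus and cortex 6 of 19 passed, 3 in each direction, beside 42.4% (21.3% higher, 21.1% lower). In bulk tissue such as this, fewer cells of a type and less RNA per cell cannot be told apart.

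Of the glutamate genes, glutamine synthetase was highest in the cortex, and its lead alone was lower in the striatum than in the hippocampus. Its lead ran from 12.35 to 12.66 in the cortex (median 12.44), from 12.20 to 12.37 in the hippocampus (median 12.29) and from 11.96 to 12.33 in the striatum (median 12.14). No striatal array reached the lowest cortical one, and 15.5% of all probe sets stood apart in this way. The difference was -0.30 ± 0.04 between striatum and cortex (adjusted p = 1.36e-09), -0.16 ± 0.04 between hippocampus and cortex (adjusted p = 0.000454) and -0.14 ± 0.04 between striatum and hippocampus (adjusted p = 0.00266). The last call was lost in 1 of 29 alternatives (limma adjusted p = 0.0714). The dimmer Glul probe sets were level between hippocampus and striatum, with means of 11.21 and 11.21 (1367633_at) and 11.68 and 11.67 (1386870_at). Their cortical means were higher, at 11.64 and 12.04, and they passed against the cortex only. The lead of the transporter Slc1a3 was lower in the striatum than in the cortex (-0.21 ± 0.06) and the hippocampus (-0.27 ± 0.06), and that of Slc1a2 was lower than in the hippocampus (-0.22 ± 0.07), while both overlapped between regions.

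Connexin 30 showed the clearest regional step. Gjb6 ran from 8.99 to 9.50 in the cortex (median 9.15), from 8.91 to 9.47 in the hippocampus (median 9.12) and from 8.01 to 8.60 in the striatum (median 8.34). All 10 striatal arrays lay below all 20 arrays of the other regions, where 15.5% (cortex) and 13.3% (hippocampus) of all probe sets stood apart. The striatum was 1.87-fold lower than the cortex (-0.90 ± 0.08, adjusted p = 3.35e-14) and 1.84-fold lower than the hippocampus (-0.88 ± 0.08, adjusted p = 1.34e-13), whereas hippocampus and cortex differed by -0.02 ± 0.08, with a 95% interval from -0.19 to 0.15. Its partner connexin 43 took another course. The Gja1 lead was highest in the hippocampus, 0.19 ± 0.05 above the cortex and 0.12 above the striatum (-0.12 ± 0.05, adjusted p = 0.0328), and did not pass between striatum and cortex (0.07 ± 0.05).

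The filament gene Gfap set the hippocampus apart. It ran from 12.17 to 12.65 there (median 12.37), from 11.18 to 11.60 in the cortex (median 11.36) and from 11.03 to 12.29 in the striatum (median 11.47). Every hippocampal array lay above every cortical one, as the groups stood apart for 7.48% of all probe sets, and the level was 2.01-fold higher (1.01 ± 0.11, adjusted p = 2.17e-11). Striatal levels were 1.81-fold lower than hippocampal ones (-0.86 ± 0.11, adjusted p = 1.22e-09) and had the largest SD of any lead in any region, 0.44. The Aqp4 lead was also highest in the hippocampus, 0.39 ± 0.08 above the cortex (adjusted p = 4.94e-05), with the striatum between them (0.20 ± 0.08 above the cortex, -0.19 ± 0.08 against the hippocampus). The dimmer Aqp4 1387397_at had another order, with means of 8.56 in cortex, 8.47 in hippocampus and 8.38 in striatum, and passed between none of them. Against the hippocampus, the striatal call was lost in 19 of 29 alternatives for the Aqp4 lead (-0.30 to -0.067), in 12 for the Gja1 lead and in 2 for the Slc1a2 lead, which was at -0.067 (adjusted p = 0.657) with chow vehicle alone. Aldh1l1 was lower in the striatum than in the cortex (-0.29 ± 0.06) and the hippocampus (-0.40 ± 0.06). Aldoc and S100b passed in none of the 3 comparisons, and their differences stayed between -0.06 and 0.07. Using chow vehicle arrays alone, 6 probe sets in place of 10 and 6 in place of 12 passed in the comparisons of the striatum with cortex and hippocampus, whereas Gjb6 and Gfap kept their direction and passed with either vehicle alone.

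**Figure D1:**
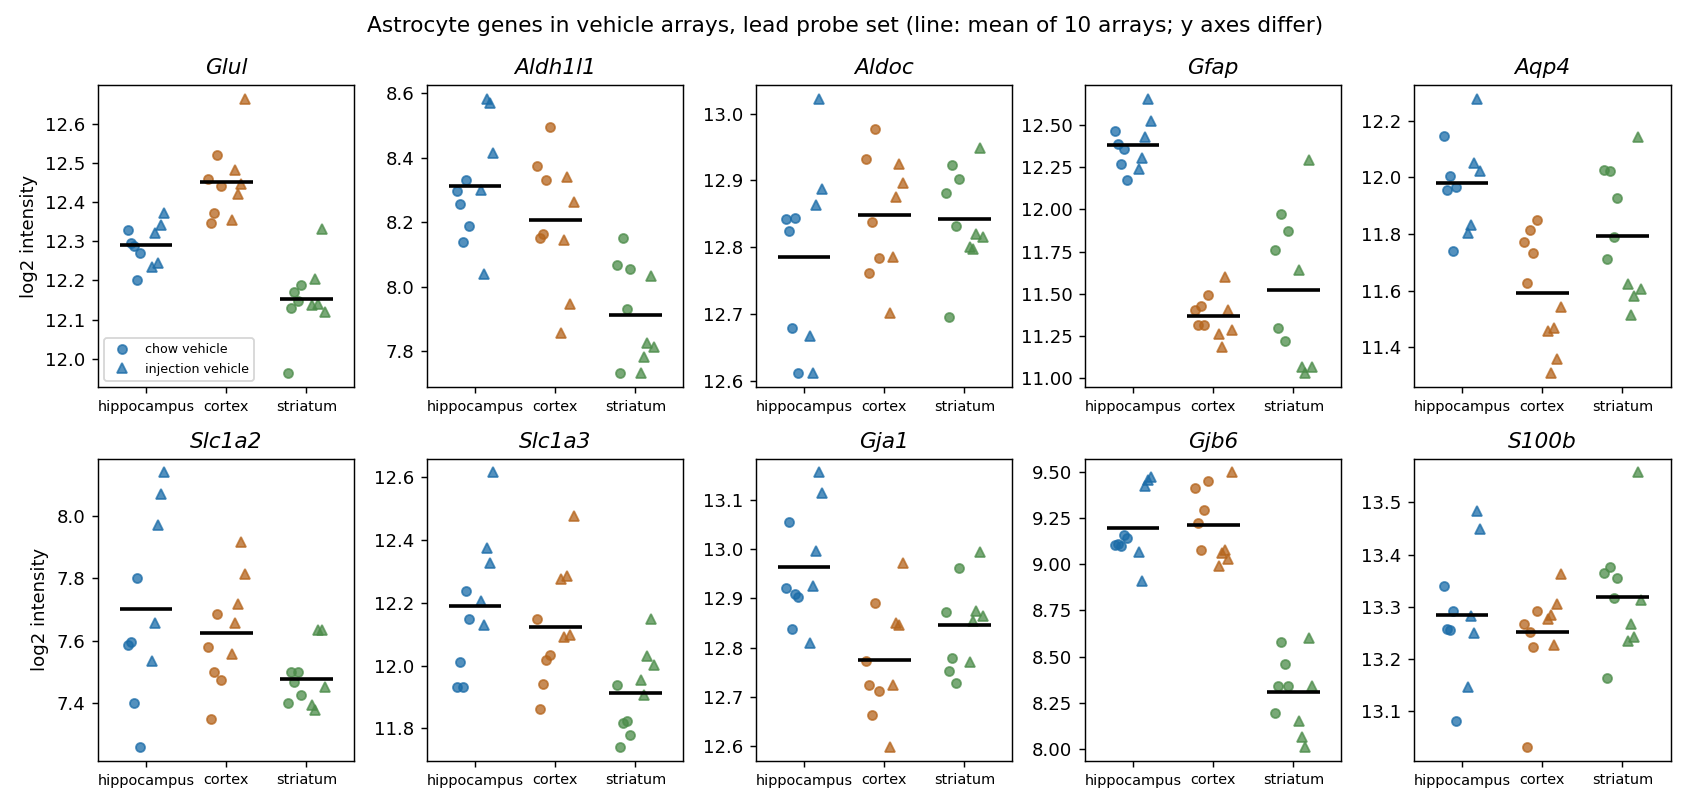
Log2 intensity of the lead probe set of each astrocyte gene (y axis, scaled per panel) in the 10 vehicle arrays of hippocampus, cortex and striatum (x axis). Circles are chow vehicle, triangles injection vehicle, and the line is the mean of 10 arrays. Gjb6 lay at a mean of 8.31 in the striatum against 9.21 in the cortex and 9.19 in the hippocampus, and Gfap at 12.38 in the hippocampus against 11.37 in the cortex.

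Genes that work beside the members also differed between regions, and not in 1 direction. Of 17 measured glutamate and glutamine genes, 13 passed between striatum and cortex, 8 of them lower, where 61.7% of all genes passed by their lead. Slc25a18, a mitochondrial glutamate carrier, was lower in the striatum by far the most (-1.80 ± 0.10 against the cortex and -1.51 ± 0.10 against the hippocampus), while the glycine transporter Slc6a9 (1.00 ± 0.09) and the GABA-degrading enzyme Abat (0.88 ± 0.05) were higher there than in the cortex. Connexin 26 (Gjb2) was lower in the striatum, as connexin 30 was, by -0.71 ± 0.18 against the cortex and -0.75 ± 0.19 against the hippocampus. Gjb1, which encodes a connexin of oligodendrocytes, was higher than in the cortex by 1.16 ± 0.11. In the list of endfoot genes, utrophin (Utrn) was higher in the striatum than in the hippocampus (1.73 ± 0.10) and the potassium channel gene Kcnj16 was lower (-1.34 ± 0.13). Markers of other cells differed as well, with all 10 measured oligodendrocyte markers higher in the striatum than in the cortex (median 1.04, 10 passed), and their part in the levels of the members was not tested.

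LiCl raised 1 of the 19 probe sets in the hippocampus, that of Gjb6, where 0.235% of all probe sets passed (0.135% higher). Its levels with LiCl were 9.60, 9.49, 9.32, 9.68 and 9.70, against 9.11, 9.11, 9.10, 9.16 and 9.14 with chow vehicle. All 5 LiCl arrays lay above all 5 vehicle arrays, as they did in 1 direction or the other for 3.87% of all probe sets. The vehicle values lay close together, and the mean rose from 9.12 ± 0.03 to 9.56 ± 0.16 (SD, n = 5), a difference of 0.44 ± 0.09 or 1.35-fold (limma adjusted p = 0.0429). Injection vehicle arrays of the same region, at 9.07, 8.91, 9.42, 9.46 and 9.47, fell on both sides, 2 below the chow vehicle values and 3 within the range of LiCl, and lamotrigine arrays lay at 9.41, 9.28, 9.36, 9.40 and 9.36. LiCl and chow vehicle arrays also differed in the spread of all their values, with interquartile ranges from 3.56 to 3.63 and from 3.43 to 3.56, and with this range as a covariate the difference was 0.27 (adjusted p = 0.738). The call was also lost in 8 of 10 fits without 1 array, with quantile normalization, with arrays centred on their medians, and when the arrays rich in choroid plexus RNA were left out.

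The other hippocampal astrocyte genes did not pass with LiCl. Aldh1l1 differed by 0.20 ± 0.09 (adjusted p = 0.274) and Slc1a2 by 0.23 ± 0.12 (adjusted p = 0.367), each with 5 of 5 LiCl arrays above the vehicle mean. Differences of the other 7 leads ran from -0.04 for Aqp4 to 0.13 for Gfap. Of the measured partners, dystrobrevin alpha (Dtna), part of the complex that holds aquaporin-4 in the endfoot, rose by 0.34 ± 0.05 (adjusted p = 0.00767), as the only 1 of 13 endfoot genes that passed. In the list of reactive astrocyte genes 2 of 22 passed, the metalloreductase Steap4 (0.61 ± 0.12, higher) and the sphingosine kinase Sphk1 (-0.50 ± 0.09, lower). None of 17 glutamate genes, 9 gap junction genes, 22 metabolic genes or 31 general astrocyte markers passed, beside 0.309% of all genes.

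**Figure D2:**
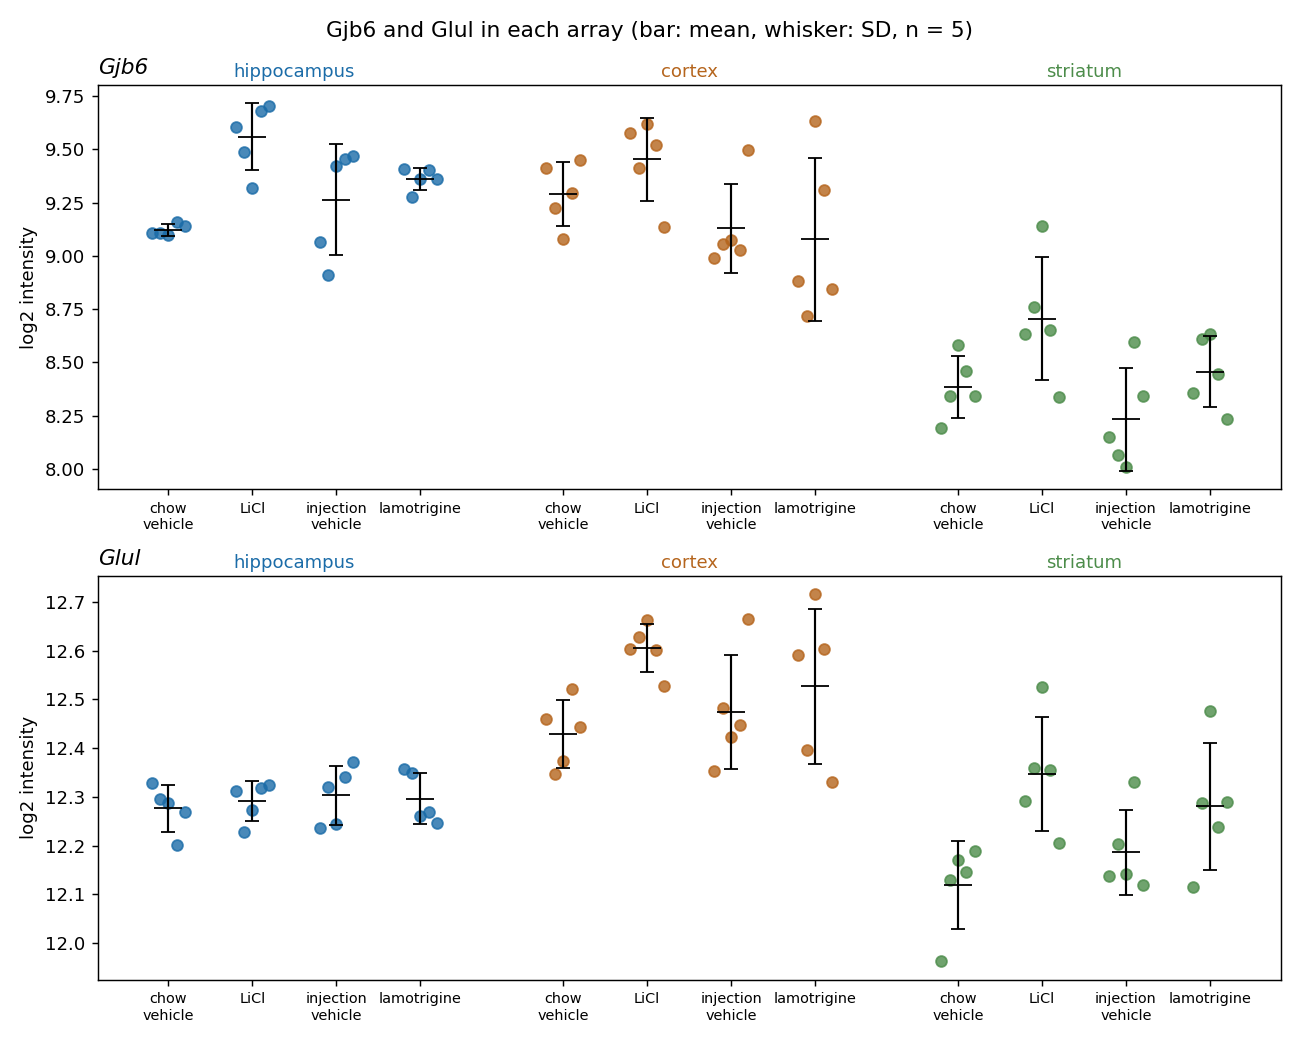
Log2 intensity of Gjb6 and of the Glul lead (y axes) in each of the 60 arrays, by region and treatment (x axis). Points are arrays, the bar is the mean and the whisker the SD of 5 arrays. In the hippocampus Gjb6 lay between 9.32 and 9.70 with LiCl and between 9.10 and 9.16 with chow vehicle, and Glul stood apart with LiCl in cortex and striatum and not in hippocampus.

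In the cortex none of the 19 probe sets passed with LiCl, where 13.4% of all probe sets did. The unadjusted p was under 0.05 for 5 of the 19, beside 9478 of all 31042 probe sets. The nearest were the dimmer Aqp4 probe set 1368981_at (-0.39 ± 0.14, adjusted p = 0.0599) and glutamine synthetase. Glul levels were 12.60, 12.63, 12.66, 12.60 and 12.53 with LiCl against 12.46, 12.35, 12.37, 12.52 and 12.44 with chow vehicle. All LiCl arrays lay above all vehicle arrays, which held in either direction for 11.8% of probe sets, and the difference was 0.18 ± 0.06 (adjusted p = 0.0635). S100b (0.13 ± 0.06, adjusted p = 0.161) and Aldoc (0.10 ± 0.06, adjusted p = 0.274) were above the vehicle mean in 5 of 5 arrays. Gjb6, at 9.58, 9.41, 9.62, 9.52 and 9.14 with LiCl and 9.41, 9.23, 9.08, 9.29 and 9.45 with vehicle, overlapped and differed by 0.16 ± 0.14 (adjusted p = 0.441).

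With LiCl in the cortex 14.5% of all genes passed by their lead, and each of the 6 partner lists held a smaller share, so the genes below are named as single values. None of 13 endfoot genes passed. The neuronal glutamine transporter Slc38a1 (-0.24 ± 0.05) and the aspartate aminotransferase Got1 (-0.26 ± 0.07) fell, as 2 of 17 glutamate genes, with none higher. The channel gene Panx1 (-0.34 ± 0.09), 1 of 9 gap junction genes, and the folate enzyme gene Mthfd1 (-0.19 ± 0.06), 1 of 22 metabolic genes, fell too. Among 31 general astrocyte markers, the amino acid transporter Slc7a10 (0.30 ± 0.09) and the matrix protein Sparc (0.31 ± 0.09) rose. Of 22 reactive astrocyte genes Sphk1 rose (0.42 ± 0.11), opposite to its hippocampal direction, and the glucocorticoid-induced Fkbp5 fell (-0.29 ± 0.10). Meningeal fibroblast markers, at a mean of 6.23 to 7.40 with LiCl and 6.16 to 6.78 with vehicle, were higher for 12 of 12 genes (median 0.40, 1 passed). The interquartile range of the arrays did not overlap either, at 3.29 to 3.44 with LiCl and 3.56 to 3.61 with vehicle. The part of these differences in the partner values was not tested.

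In the striatum no probe set on the array passed with LiCl (0% of 31042, 3828 with an unadjusted p under 0.05), and 8 of the 19 astrocyte probe sets had such a p. For 16 of 19 the difference was above 0, as for 44.6% of all probe sets, with a median of 0.14 beside -0.018 over all. The members moved together from array to array, so these 19 are not separate observations. Glul lay at 12.29, 12.36, 12.53, 12.35 and 12.21 with LiCl and at 11.96, 12.13, 12.17, 12.15 and 12.19 with chow vehicle. The groups did not overlap, as for 2.96% of all probe sets, but the lowest LiCl and the highest vehicle array were close, and the difference of 0.23 ± 0.07 did not pass (adjusted p = 0.222). Aldh1l1 differed by 0.28 ± 0.09 (adjusted p = 0.251), Aldoc by 0.16 ± 0.06 (adjusted p = 0.296), Slc1a3 by 0.19 ± 0.09 (adjusted p = 0.38) and Gja1 by 0.16 ± 0.07 (adjusted p = 0.365). Gjb6 was at 8.63, 8.76, 9.14, 8.65 and 8.34 with LiCl against 8.19, 8.34, 8.58, 8.46 and 8.34, which overlap (0.32 ± 0.13, adjusted p = 0.334). Aqp4, S100b and Gfap differed by 0.04, 0.08 and -0.04. None of the partner genes passed. LiCl 3, the highest LiCl array for Glul and Gjb6, had the highest mean of its group for the astrocyte leads (11.46). It was also highest for oligodendrocyte (11.83) and microglia markers (8.21), and lowest for striatal neuron markers (11.47). Choroid plexus markers, with a mean of 6.19 to 9.10 in LiCl arrays and 5.77 to 6.50 in vehicle arrays, were higher for 11 of 12 genes (median 1.37, 0 passed), and all 9 striatal neuron markers were lower (median -0.19, 0 passed). Their part in the astrocyte values was not tested.

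Averaged over the 3 regions, LiCl raised Gjb6 and glutamine synthetase. This was 2 of 19 probe sets, both higher, where 0.786% of all probe sets passed (0.329% higher). Gjb6 rose by 0.31 ± 0.08 (1.24-fold, adjusted p = 0.041) and the Glul lead by 0.14 ± 0.04 (1.10-fold, adjusted p = 0.0416). Each was above the chow vehicle mean of its own region in 13 of 15 LiCl arrays. Aldoc was above it in 15 of 15 (0.11 ± 0.04, adjusted p = 0.173) and Aldh1l1 in 14 of 15 (0.17 ± 0.06, adjusted p = 0.161), and neither passed. The other Glul probe sets differed by 0.13 ± 0.05 (1386870_at, adjusted p = 0.221) and 0.12 ± 0.08 (1367633_at, adjusted p = 0.503). Gfap and Aqp4 stayed at 0.03 ± 0.10 and -0.06 ± 0.07. Both calls rest close to the threshold, as neither passed when the arrays rich in choroid plexus RNA were left out (Gjb6 0.32, adjusted p = 0.0957, and Glul 0.15, adjusted p = 0.0629). Leaving out 1 array at a time, fewer than 2 passed in 21 of 30 fits. Without LiCl 3 of the striatum neither passed (Gjb6 0.28, limma adjusted p = 0.0851, and Glul 0.13, adjusted p = 0.0865). Of the partner lists, Steap4 was the only gene that passed (0.49 ± 0.10, adjusted p = 0.0123).

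Whether the LiCl effect differed between regions was tested directly. None of the 19 probe sets passed, where 17.2% of all probe sets did. The nearest, and the only 2 with an unadjusted p under 0.05, were the dim Slc1a3 probe set 1371130_at (adjusted p = 0.0795), at -0.13 in hippocampus, 0.28 in cortex and -0.08 in striatum, and the Glul lead (adjusted p = 0.101), at 0.01, 0.18 and 0.23. For Gjb6, at 0.44, 0.16 and 0.32, the adjusted p was 0.463. The LiCl difference of Gjb6 passed in the hippocampus alone but was not shown to differ between regions.

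**Figure D3:**
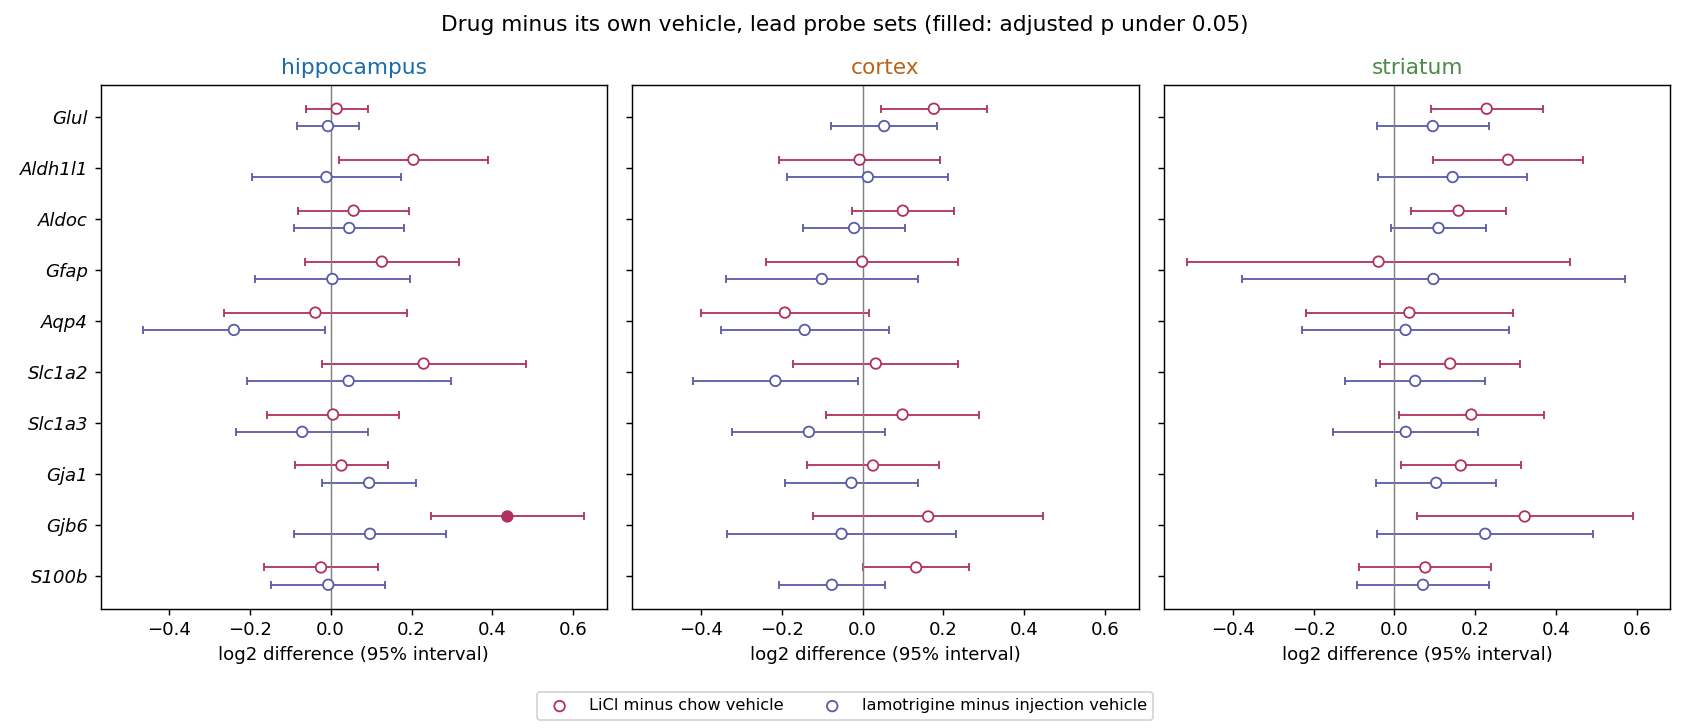
Difference of each drug from its own vehicle (x axis, log2 scale) for the lead probe set of each astrocyte gene (y axis) in 3 regions. Points are fitted differences, whiskers 95% intervals, and a filled point has an adjusted p under 0.05. The filled point is Gjb6 with LiCl in the hippocampus (0.44). In the striatum 9 of 10 LiCl and 10 of 10 lamotrigine differences lie above 0 without passing, beside 6723 and 8210 of the leads of all 14217 genes.

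Lamotrigine moved no astrocyte probe set past the threshold in any region, and hardly any other. The share of all probe sets that passed was 0.00322% in hippocampus, 0% in cortex and 0% in striatum, with 3063, 1799 and 1193 at an unadjusted p under 0.05. Among the 19 astrocyte probe sets 2, 1 and 3 had such a p, and none had lamotrigine and vehicle arrays that stood apart, beside 2.14%, 0.763% and 0.557% of all. In the hippocampus these were Aqp4 (-0.24 ± 0.11, adjusted p = 0.479) and the Glul probe set 1367633_at (0.35 ± 0.14, adjusted p = 0.421). In the cortex it was Slc1a2 (-0.22 ± 0.10, adjusted p = 0.855). In the striatum both dimmer Glul probe sets (0.25 ± 0.08 and 0.23 ± 0.07) and Gja1 1369640_at (0.27 ± 0.13) had one, all with an adjusted p of 0.997. There 17 of 19 differences were above 0, as were 51.7% over all probe sets, with a median of 0.095 against 0.0038 over all. Choroid plexus markers were higher for 10 of 12 genes (median 0.33; mean 5.97 to 9.16 with lamotrigine, 5.90 to 9.14 with vehicle), ependymal markers for 7 of 7 (median 0.20) and oligodendrocyte markers for 1 of 10, with 0 passed in each list, and their part was not tested. Gjb6 differed by 0.10 ± 0.09, -0.05 ± 0.14 and 0.22 ± 0.13 in hippocampus, cortex and striatum. Averaged over regions none of 19 passed (0.119% of all), with Glul 1367633_at nearest (0.23 ± 0.08, adjusted p = 0.419). None passed for a lamotrigine effect that differed between regions (0% of all, 1715 with an unadjusted p under 0.05). None of the partner genes of the 6 astrocyte lists passed with lamotrigine either.

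The LiCl effect was also set against the lamotrigine effect within each region. No astrocyte probe set passed in hippocampus, cortex or striatum, beside 0%, 0.0129% and 0% of all probe sets. For Gjb6 the LiCl effect in the hippocampus exceeded the lamotrigine effect by 0.34 ± 0.13, with a 95% interval from 0.07 to 0.61 (adjusted p = 0.226), and for S100b in the cortex by 0.21 ± 0.09 (adjusted p = 0.293). An unadjusted p under 0.05 was seen for 4468, 4487 and 2485 of all probe sets.

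More astrocyte probe sets passed between the 2 vehicles than between either drug and its own vehicle. In the hippocampus 8 of 19 astrocyte probe sets passed between injection and chow vehicle (7 higher, 1 lower) beside 18.5% of all (10.9% higher, 7.6% lower), in the cortex 7 (6 higher, 1 lower) beside 18.9% (8.92% higher, 10% lower), and in the striatum 4, all higher, beside 6.83% (3.83% higher). Route, diet and animals differ together between the arms and cannot be told apart. The probe sets of 1 gene disagreed. For connexin 43, the dimmer probe set Gja1 1369640_at lay at 9.39, 9.50, 9.52, 10.15 and 9.79 in the hippocampus of injected controls and at 8.84, 8.75, 8.40, 9.04 and 7.86 in chow controls. The groups stood apart, with a difference of 1.09 ± 0.17 (2.13-fold, adjusted p = 9.15e-05), and 12.6% of all probe sets stood apart in this comparison. The bright Gja1 lead, at 12.81 to 13.16 and 12.84 to 13.06 in the same arrays, differed by 0.08 ± 0.06 (adjusted p = 0.365).

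The probe sets of the glutamate transporter gene Slc1a3 differed in the size of the step, and 1 of them in its direction in the hippocampus. Its probe set 1388064_a_at ran from 10.53 to 11.01 with injection and from 9.39 to 10.16 with chow in the hippocampus, and was higher in all 3 regions, by 0.93 ± 0.12 (adjusted p = 9.25e-06), 0.82 ± 0.09 in the cortex (adjusted p = 1.82e-06) and 0.56 ± 0.07 in the striatum (adjusted p = 5.06e-05), with no overlap between groups. In cortex and striatum 13.4% and 9.51% of all probe sets stood apart. The Slc1a3 lead was 0.28 ± 0.08 higher in the hippocampus (adjusted p = 0.0168), a difference that turned to -0.03 (adjusted p = 0.955) once the interquartile range of each array was a covariate, and the dim 1371130_at was lower there by -0.26 ± 0.09, which was -0.10 (adjusted p = 0.847) with that covariate and did not pass in 10 of 19 alternatives. Both dimmer Glul probe sets were higher in the cortex (0.47 ± 0.10 and 0.38 ± 0.07) and the striatum (0.39 ± 0.08 and 0.24 ± 0.07), while the Glul lead differed by 0.05 ± 0.06 and 0.07 ± 0.07. For Aqp4 the probe sets went opposite ways in the cortex. The lead lay at 11.46, 11.31, 11.47, 11.36 and 11.54 with injection and at 11.77, 11.63, 11.81, 11.73 and 11.85 with chow, which do not overlap (-0.33 ± 0.10, adjusted p = 0.0222), whereas 1368981_at was 0.43 ± 0.14 higher and 1387397_at 0.41 ± 0.13 higher. The log2 ratio of 3' to 5' control probe sets, a sign of RNA quality, had group means of 0.59 to 0.67 in chow and 0.61 to 0.73 in injection controls. Gjb6, Gfap, Aldoc, Aldh1l1 and S100b passed in no region.

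**Figure D4:**
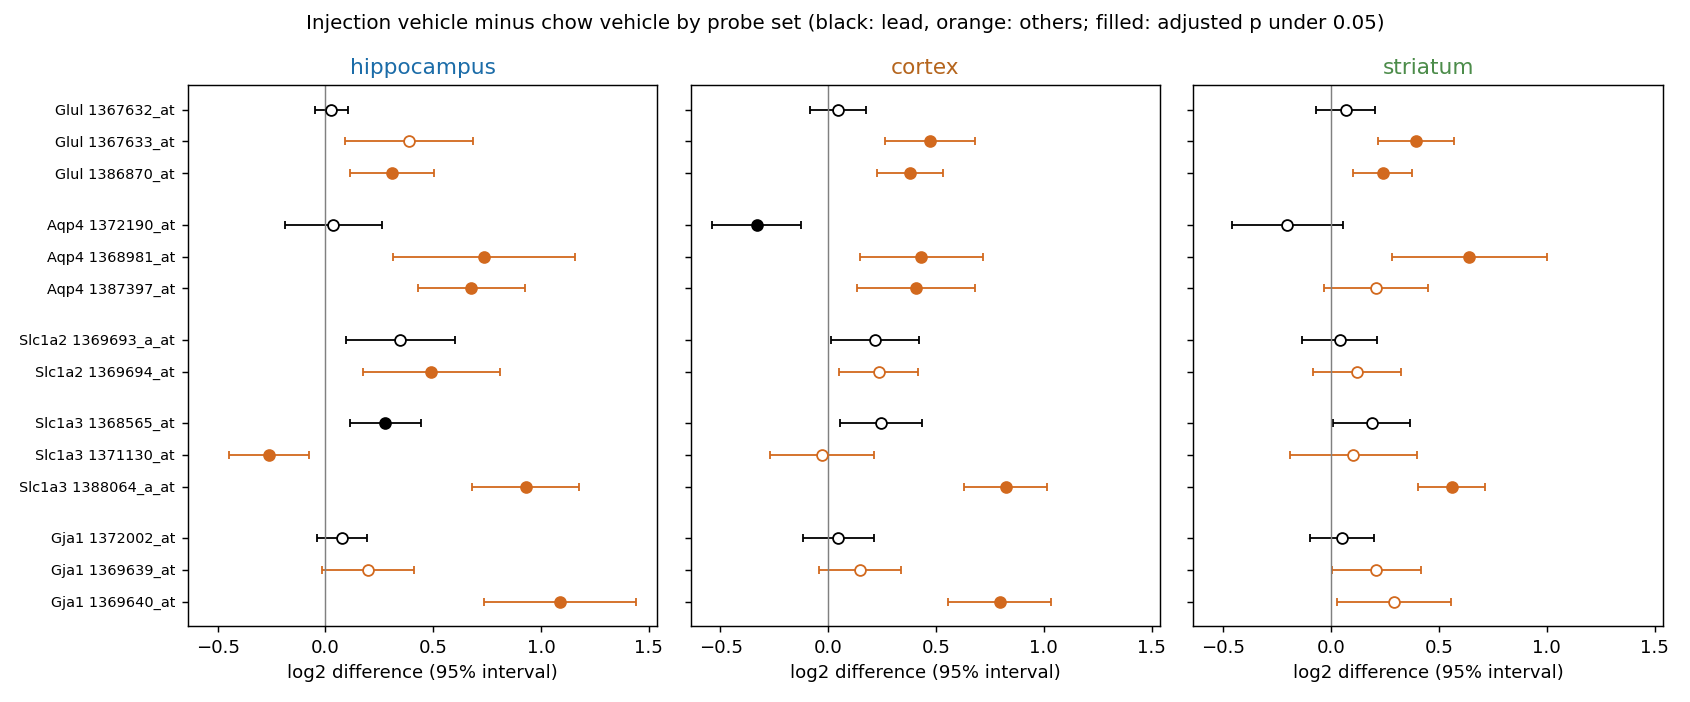
Difference between injection vehicle and chow vehicle (x axis, log2 scale) for each probe set of the 5 astrocyte genes with more than 1 (y axis), in 3 regions. Black points are leads, orange points the other probe sets, whiskers 95% intervals, and filled points have an adjusted p under 0.05. In the hippocampus the Gja1 lead lies at 0.08 and 1369640_at at 1.09.

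Partner genes differed between the vehicles too, where 16.5% of all genes passed by their lead in hippocampus, 18.5% in cortex and 5.72% in striatum. In the hippocampus 6 of 13 endfoot genes passed, all higher, among them utrophin (Utrn, 0.86 ± 0.19), dystrophin (Dmd, 0.62 ± 0.10), the potassium channel gene Kcnj10 (0.42 ± 0.12), Dtna (0.37 ± 0.05) and the bicarbonate transporter gene Slc4a4 (0.28 ± 0.08). In the cortex 5 passed as higher, with Utrn at 0.69 ± 0.10 and Kcnj10 at 0.51 ± 0.11, and the sodium pump subunit Atp1b2 passed as lower (-0.37 ± 0.09). In the striatum 2 passed, Dmd as higher (0.43 ± 0.10) and Atp1b2 as lower (-0.40 ± 0.11). Of the other lists in the hippocampus, 5 of 17 glutamate genes passed, 2 of 9 gap junction genes and 3 of 22 metabolic genes. So did 6 of 31 general astrocyte markers and 4 of 22 reactive genes, beside the 16.5% of all genes. The genes below are therefore named as single values. The metabotropic glutamate receptor genes Grm3 (0.92 ± 0.07, 0.80 ± 0.08 and 0.72 ± 0.08) and Grm5 (0.86 ± 0.11, 0.92 ± 0.18 and 1.18 ± 0.20) were higher in hippocampus, cortex and striatum. So were Pdk4, a kinase that holds back pyruvate oxidation (1.50 ± 0.33, 0.86 ± 0.25 and 1.37 ± 0.35), and Dio2, which activates thyroid hormone (0.68 ± 0.12, 0.62 ± 0.11 and 0.82 ± 0.13). Lower in all 3 were Sparc (-0.38 ± 0.08, -0.31 ± 0.09 and -0.39 ± 0.08) and the receptor gene Gpr37l1 (-0.37 ± 0.10, -0.37 ± 0.10 and -0.38 ± 0.11). Oligodendrocyte markers in the hippocampus, at a mean of 10.98 to 11.25 with injection and 10.68 to 11.02 with chow, were higher for 10 of 10 genes (3 passed). Microglia markers were higher for 11 of 13 (3 passed), choroid plexus markers for 10 of 12 (median 0.61, 0 passed) and endothelial and pericyte markers for 2 of 12 (3 passed, all lower), while 6 of 12 neuron markers passed, 3 in each direction. Their part was not tested.

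Within groups the astrocyte genes rose and fell together from array to array. As deviations from group means over 60 arrays, each lead correlated with the mean of the other 9 at a Pearson r from 0.585 (Gfap) to 0.815 (Aldoc). The closest pairs were Aldh1l1 and Aldoc (0.74) and Glul and Gjb6 (0.70). The SD within groups was 0.09 for the Glul lead (percentile 8.35 of all probe sets), while the other Glul probe sets were at percentiles 39.6 and 81.2, and 0.28 for Gfap (percentile 93.5). Among all other genes, the 8 most like the mean of the members were Asrgl1 (0.89), Mlc1 (0.87), Tst (0.87), Mmd2 (0.87), C19h1orf198 (0.86), Acsbg1 (0.86), Entpd2 (0.86) and S100a16 (0.85). The gene at rank 100 still had an r of 0.73, so this movement was not particular to the members. Mlc1 encodes a membrane protein of astrocyte endfeet and Acsbg1 an acyl-CoA synthetase of lipid metabolism. Points share arrays and, across regions, animals, so these are descriptions. Pairs of different leads ran from 0.36 to 0.74. Between the lead and another probe set of 1 gene, r was 0.27 and 0.47 for Glul, 0.58 and 0.46 for Aqp4, 0.65 for Slc1a2, 0.58 and -0.14 for Slc1a3, and 0.50 and -0.10 for Gja1. The lowest 2 belonged to the dim probe sets 1371130_at (mean level 7.35) and 1369639_at (mean level 3.82).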

How the data were processed

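RNA from 3 brain regions was hybridised to Affymetrix rat arrays, 60 in all. The authors deposited linear intensity values summarised by RMA (R 2.7.2, per the labels), between 6.93 and 28582.4, so log2 was taken here without a pseudocount, although log2 values had been planned for. Median intensities lay between 93.5 and 101. Arrays hold no read depth, and their number limits the precision. Of 31099 probe sets, 57 controls were left out. Differences were tested with limma 3.58.1 (R 4.3.3, with moderated variances that follow the intensity) and Benjamini-Hochberg adjustment over 31042 probe sets. Within a region, 1 fit held 20 arrays in 4 groups. Comparisons between or averaged over regions used all 60 arrays with the animal number as a random block (correlation 0.133). The fit within a region was tested on simulated data, for LiCl against chow vehicle in the hippocampus. The fits over all 60 arrays were not tested in this way.

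Genes were named from the platform annotation, in which 20826 probe sets have 1 symbol, 436 several and 9780 none. The members and the gene lists were chosen with earlier results of these data known. All members are named, with at most 12 called genes per comparison and list family, the largest differences first, and the 8 genes most like the members. Replicate numbers did not pair arrays within a region, since deviations of same-numbered arrays had a mean correlation between -0.25 and 0.02. Alternatives changed normalization, covariates, filters, blocks and the arrays used. Upstream sequences came from RefSeq.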

Additional observations from a re-analysis of the deposited data

Results flagged for a closer look

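Among 120 sets of 5 arrays (10 lead probe sets in 12 groups), 9 held 1 array that stood apart from the other 4 by Dixon's criterion, and chance gives about 1 in 20. Injection vehicle 4 of the striatum accounted for 3 of them, being highest for Aldoc (12.95, the others 12.80 to 12.82), Aqp4 (12.14, the others 11.51 to 11.62) and S100b (13.56, the others 13.23 to 13.31). The same array had the highest oligodendrocyte marker mean of its group (11.92) and the highest microglia marker mean (8.09), and the part of these cells was not tested. Glul was low in chow vehicle 1 of the striatum (11.96, the others 12.13 to 12.19), and without this array the LiCl effect on Glul averaged over regions was 0.13 (limma adjusted p = 0.0744). Aldh1l1 was low in LiCl 5 of the cortex (8.11, the others 8.33 to 8.38), and Gjb6 was high in injection vehicle 5 of the cortex (9.50, the others 8.99 to 9.08), one of the arrays high in choroid plexus genes. S100b was low in chow vehicle 2 of the cortex (13.03, the others 13.22 to 13.29) and chow vehicle 2 of the striatum (13.16, the others 13.32 to 13.38), and high in lamotrigine 3 of the cortex (13.50, the others 13.10 to 13.19).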

How the results depend on the processing

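The regional steps of Gjb6 and Gfap passed under all 29 alternatives run, with Gjb6 between -0.95 and -0.80 (striatum against cortex) and between -1.03 and -0.73 (against hippocampus), and Gfap between 0.93 and 1.08 (hippocampus against cortex). The count of 1 with LiCl in the hippocampus fell to 0 with quantile normalization, median centring, array spread as a covariate, the replicate number as a block (Gjb6 adjusted p = 0.0533) and without arrays high in choroid plexus genes, and was 0 to 1 without 1 array (kept without LiCl 3 or chow vehicle 5). In the cortex the LiCl count of 0 became 1 with the replicate number as a block, 2 with only the groups compared and 1 without choroid plexus arrays, and was 0 to 1 without 1 array. The averaged LiCl count of 2 was 1 with median centring, 1 without the intensity trend, 0 without choroid plexus arrays and 0 to 2 without 1 array, and both calls held without the animal number as a block (Gjb6 adjusted p = 0.0179, Glul 0.0173). For a LiCl effect that differed between regions, 0 became 1 with quantile normalization and 0 to 1 without 1 array. Between vehicles, the hippocampal 8 became 3 with the spread covariate and 5 with only the groups compared (4 to 11 without 1 array, 4 without injection vehicle 5 or chow vehicle 3, 5 without injection vehicle 4), the cortical 7 ran from 4 (without chow vehicle 5) to 7, and the striatal 4 became 2 with the spread covariate and 2 without choroid plexus arrays (2 to 4 without 1 array, 2 without injection vehicle 4 or chow vehicle 2). Between regions, 10 (striatum and cortex) became 6 with the spread covariate and 6 with chow vehicle only (9 to 11 without 1 array), 12 (striatum and hippocampus) became 7 and 6 (8 to 12), and 6 (hippocampus and cortex) ran from 6 to 8. Directions reversed for the Slc1a3 lead between vehicles in the hippocampus with the spread covariate (-0.027), and with chow vehicle only for Gja1 1369640_at (0.15) and Slc1a3 1388064_a_at (0.0090) between striatum and hippocampus. The causes were not tested.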
